A study of Mus musculus with 16 samples.

Results

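The FACIT collagens (fibril-associated collagens with interrupted triple helices) were described here as 8 genes picked by name from the deposited table: Col9a1, Col9a2, Col9a3, Col12a1, Col14a1, Col16a1, Col19a1 and Col22a1. All 8 were found among the 49315 genes of the table, and 7 of them reached 1 TPM (a read count scaled by gene length and by the library total) in at least 3 libraries and were tested. Col19a1 stayed under 1 TPM in all 16 libraries and is given as values. RNA had been sequenced in bulk from tail intervertebral discs, with 4 coccygeal discs of each mouse pooled into 1 library. The groups were intact discs of 3 wild-type mice, injured discs of 4 wild-type mice, intact discs of 4 Adam8EQ mutants and injured discs of 5 Adam8EQ mutants. Adam8 encodes a membrane-anchored metalloprotease, the wild type is given by the titles, and the series title sets the mutants against DBA mice. The strain of the mutants, the kind of injury, the time after it, and the age and sex of the mice are not given in the sources used here.

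FACIT collagens do not form fibrils of their own. They bind along the surface of collagen fibrils by short triple-helical domains and hold large non-collagenous domains away from it, where these meet proteoglycans, matrilins, tenascins and cells. Collagen IX, built from the chains of Col9a1, Col9a2 and Col9a3, covers the collagen II fibrils of cartilage and of the inner disc, while collagens XII and XIV sit on the collagen I fibrils of tendon, ligament and the outer annulus. Collagen XVI occurs in cartilage and skin, collagen XIX near basement membrane zones, and collagen XXII at myotendinous junctions.

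The RefSeq table (GRCm38.p6) held windows of 300 bases, from 250 before to 50 after a start, for 4 of the 8 genes. Col9a3, Col12a1, Col14a1 and Col22a1 had no entry. Col9a1 has a start at each of 2 places, an upstream one for the long form of the chain and a downstream one for the short form that lacks the large amino-terminal domain. Both are shown because the level of a whole gene does not separate them. Col9a2 and Col16a1 are shown because their levels moved together from mouse to mouse, as described further on. The windows lie at chr1:24177360-24177659 and chr1:24194953-24195252 for Col9a1, at chr4:121039316-121039615 for Col9a2 and at chr4:130047590-130047889 for Col16a1, all on the plus strand. Capitals mark the letters GGGCGG or their reverse complement CCGCCC, the core of the GC box.
Col9a1, upstream start: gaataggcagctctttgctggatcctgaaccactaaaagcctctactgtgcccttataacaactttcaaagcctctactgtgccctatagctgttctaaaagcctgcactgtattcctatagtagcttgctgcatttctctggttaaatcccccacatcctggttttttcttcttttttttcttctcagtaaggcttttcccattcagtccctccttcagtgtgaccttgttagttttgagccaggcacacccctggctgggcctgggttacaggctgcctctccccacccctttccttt
Col9a1, downstream start: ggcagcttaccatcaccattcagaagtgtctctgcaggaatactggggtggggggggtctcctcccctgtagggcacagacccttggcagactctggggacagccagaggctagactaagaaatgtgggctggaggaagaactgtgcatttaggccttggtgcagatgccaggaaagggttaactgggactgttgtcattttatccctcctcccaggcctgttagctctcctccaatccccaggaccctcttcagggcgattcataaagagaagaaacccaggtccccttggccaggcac
Col9a2: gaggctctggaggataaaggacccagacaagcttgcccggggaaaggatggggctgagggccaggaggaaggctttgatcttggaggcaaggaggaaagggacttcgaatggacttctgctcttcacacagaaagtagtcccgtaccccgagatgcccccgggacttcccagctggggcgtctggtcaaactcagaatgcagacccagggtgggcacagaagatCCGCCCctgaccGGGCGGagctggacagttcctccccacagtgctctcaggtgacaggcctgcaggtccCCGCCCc
Col16a1: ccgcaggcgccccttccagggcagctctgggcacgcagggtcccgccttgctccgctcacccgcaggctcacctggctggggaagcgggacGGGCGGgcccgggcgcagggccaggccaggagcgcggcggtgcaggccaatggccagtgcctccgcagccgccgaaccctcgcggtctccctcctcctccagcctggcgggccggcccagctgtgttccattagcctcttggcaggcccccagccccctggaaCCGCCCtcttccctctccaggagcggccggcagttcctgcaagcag
The Col9a2 window held this motif 3 times and the Col16a1 window held it 2 times. It occurs on either strand in 35.6% of the 32817 windows of the table. None of the 5 motifs searched on both strands was found in either Col9a1 window or in the Col19a1 window (chr1:24587388-24587687, minus strand). The other 4 were ACAAAG, present in 18.7% of all windows, ACAATG, present in 12.6%, TGANTCA, present in 7.81%, and TATAAA, present in 13.6%. The share of G and C was 47.3% and 55.7% in the upstream and downstream Col9a1 windows, 56.3% in that of Col19a1, 61.7% in that of Col9a2 and 74.3% in that of Col16a1, against a median of 52.7% over all windows.

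The 16 libraries held 10204094 to 24834534 reads as implied by the TPM values. The discs carried the markers of their tissue, since the summed TPM of 6 chondrocyte markers was 9028 to 11970 in intact discs and that of 6 nucleus pulposus and notochord markers 7024 to 15820. Injured wild-type mouse 3 and injured mutant mouse 2 stood apart. They had the lowest chondrocyte sums of all libraries (5858 and 4574 TPM) and the highest macrophage sums (3661 and 7342 TPM, against 127 to 207 TPM in intact discs), and results that rest on them are given with and without them. Injured wild-type mice 1 and 2 had macrophage sums of 217 and 368 TPM, under the 712 TPM of the lowest injured mutant. Adam8 itself was at 0.956 to 2.97 TPM in intact discs and 3.52 to 264.1 TPM in injured ones, which does not check an allele that the labels do not describe. Names of mutant libraries begin with A8 in mice 1 and 2 of both treatments and with M in the others, and those of the wild type with D, so that this naming and the genotype cannot be told apart.

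With injury in mutants, Col12a1 rose 8.39-fold in mean TPM, Col9a3 fell to 0.326 times its intact mean and Col16a1 to 0.534 times. Thus 3 of the 7 tested members passed an adjusted p of 0.05 (limma on log2(TPM + 1), Benjamini-Hochberg over 24188 genes), 1 higher and 2 lower. Among all tested genes 30.8% passed, 13.1% higher and 17.7% lower, so the number of members is near that background. In wild-type mice no tested member passed, and whether injury acted differently in the genotypes is a separate test given further on. The median change of all tested genes in mutants was -0.08 on the log2 scale.

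**Figure D1:**
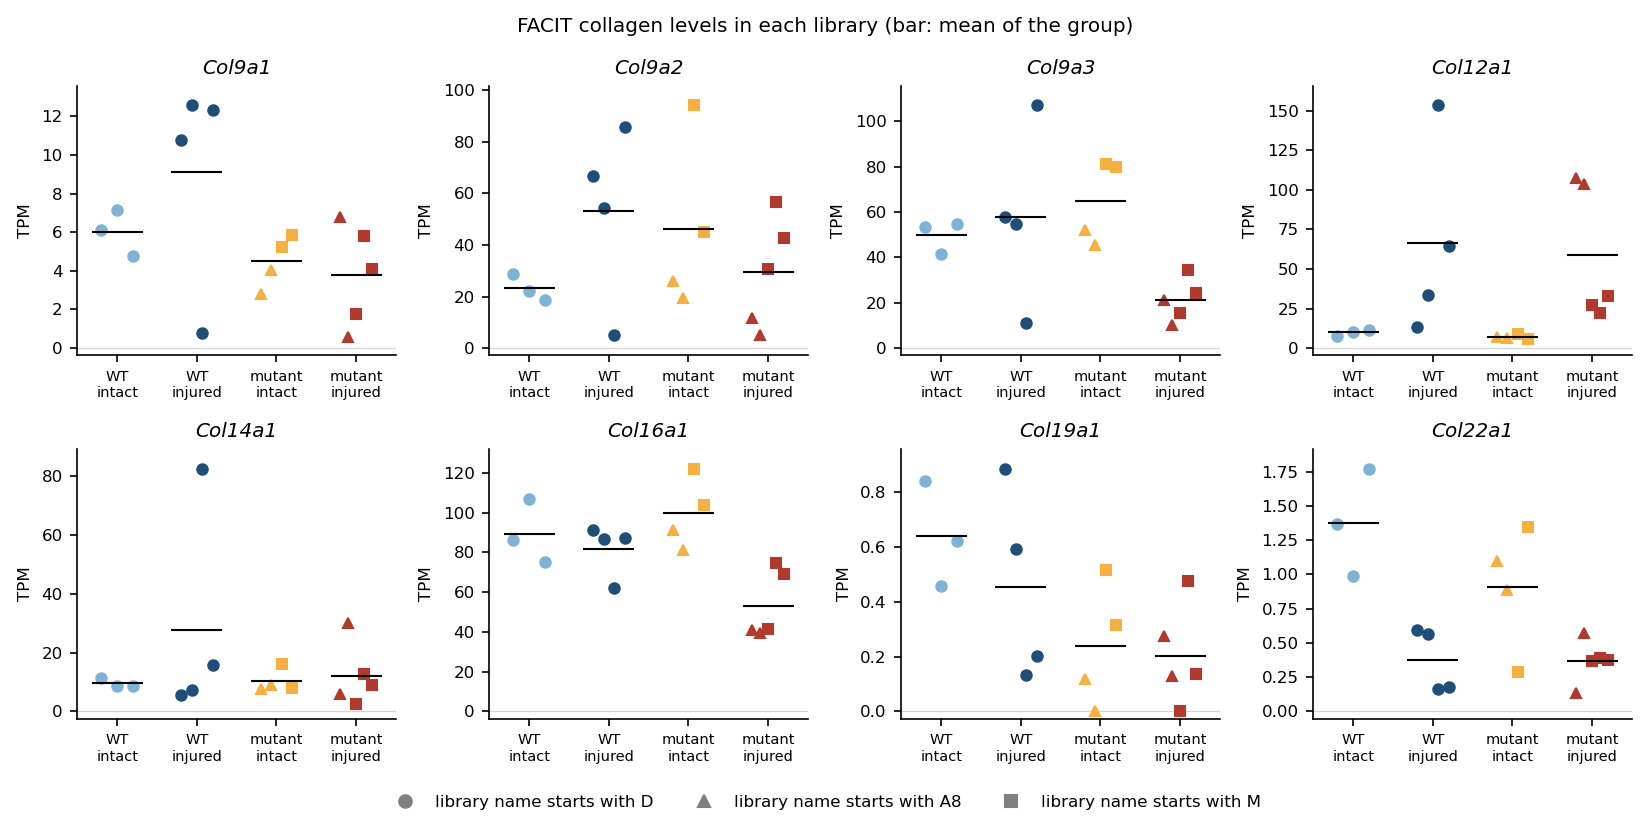
TPM of each of the 8 FACIT collagens (y axis, linear, a separate scale per gene) in the 4 groups (x axis), 1 point per mouse, shaped by the start of the library name, with a bar at the group mean. Col12a1 was higher in every injured library than in the intact libraries of the same genotype, and Col9a3 and Col16a1 were lower in each of the 5 injured mutants than in the 4 intact mutants.

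Col12a1 (ENSMUSG00000032332, chromosome 9, 79598991 to 79718831, minus strand, GRCm38) encodes the homotrimeric collagen XII, which binds collagen I fibrils and, through its large amino-terminal arms, tenascins and decorin. In intact wild-type discs it was at 7.87, 10.1 and 11.7 TPM and in intact mutant discs at 7.23, 6.36, 8.68 and 5.78 TPM. In injured wild-type discs it was at 13.4, 33.5, 153.4 and 64.6 TPM. Injured mutant discs had 107.6, 103.9, 27.4, 22.0 and 33.1 TPM. The intact mice lay close together, the injured mice spread widely, and within neither genotype did the injured and intact groups overlap. In mutants the log2 change was 2.60 ± 0.59 (moderated SE, n = 5 and 4, adjusted p = 0.005243). In the wild type the log2 change was 2.14 ± 0.67 (n = 4 and 3), a 6.70-fold higher mean, which did not pass (limma adjusted p = 0.1638). Without injured wild-type mouse 1, the one with the lowest level, the wild-type change was 2.71 ± 0.60 and passed (limma adjusted p = 0.04138, with 1.87% of all genes passing in that fit). Without injured wild-type mouse 3, the highest, it was 1.57 ± 0.60 (limma adjusted p = 0.4162), and with a skeletal muscle score as a covariate 1.24 ± 0.56 (adjusted p = 0.5234). With both mice that stood apart left out, an alternative chosen after the data were seen, it was 1.57 ± 0.55 (limma adjusted p = 0.317), and the change in mutants was 2.31 ± 0.48 and passed (adjusted p = 0.003515). Non-overlap upwards was found for 12.0% of all tested genes in mutants and for 9.22% in the wild type. The interaction of injury and genotype was 0.46 ± 0.89 on the log2 scale (limma adjusted p = 0.9099). In bulk samples a change in the number of cells of a type and a change in the RNA of each cell cannot be told apart.

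The 2 highest injured mutants for Col12a1 were those with A8 names, and the 3 with M names lay between 22.0 and 33.1 TPM. Of the A8-named mice, injured mutant 2 is one that stood apart. Injured mutant 1 had the highest sum of Schwann cell markers of all libraries, 273.6 TPM, and the lowest nucleus pulposus sum. The part of these in the Col12a1 level was not tested. With only the A8-named mutants in the mutant groups (2 injured against 2 intact) the log2 change was 3.78 and passed (limma adjusted p = 0.02372, 14.8% of all genes passing). With only the M-named mutants (3 against 2) it was 1.80 and did not pass (adjusted p = 0.1702, 725 of the 24188 genes passing). The nucleus pulposus sums of the A8-named and M-named injured mutants overlapped. The sum was 581 and 3952 TPM in the injured A8-named mice and 1154, 7023 and 3988 TPM in the M-named ones.

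Collagen XII has its place on collagen I fibrils, so its transcript was also set against Col1a1, the main chain of collagen I, within each library. The ratio of Col12a1 to Col1a1 was 0.0117, 0.0107 and 0.0198 in intact and 0.0124, 0.0312, 0.0255 and 0.0326 in injured wild-type discs. In mutants it was 0.00557, 0.00646, 0.0131 and 0.00685 in intact and 0.0487, 0.0454, 0.0452, 0.0258 and 0.0369 in injured discs. The mutant groups did not overlap, and their mean log2 ratio differed by 2.39 (exact two-sided permutation p = 0.007937, the smallest that 5 against 4 mice allow, adjusted p = 0.07937 over 10 ratio tests). After adjustment this did not pass. Between injured mutants and injured wild-type mice the log2 ratio differed by 0.73 (exact permutation p = 0.05556, adjusted p = 0.2778). Col1a1 itself was at 607 to 2286 TPM in injured and 661 to 1296 TPM in intact mutants, with a log2 change of 0.37 that did not pass.

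**Figure D2:**
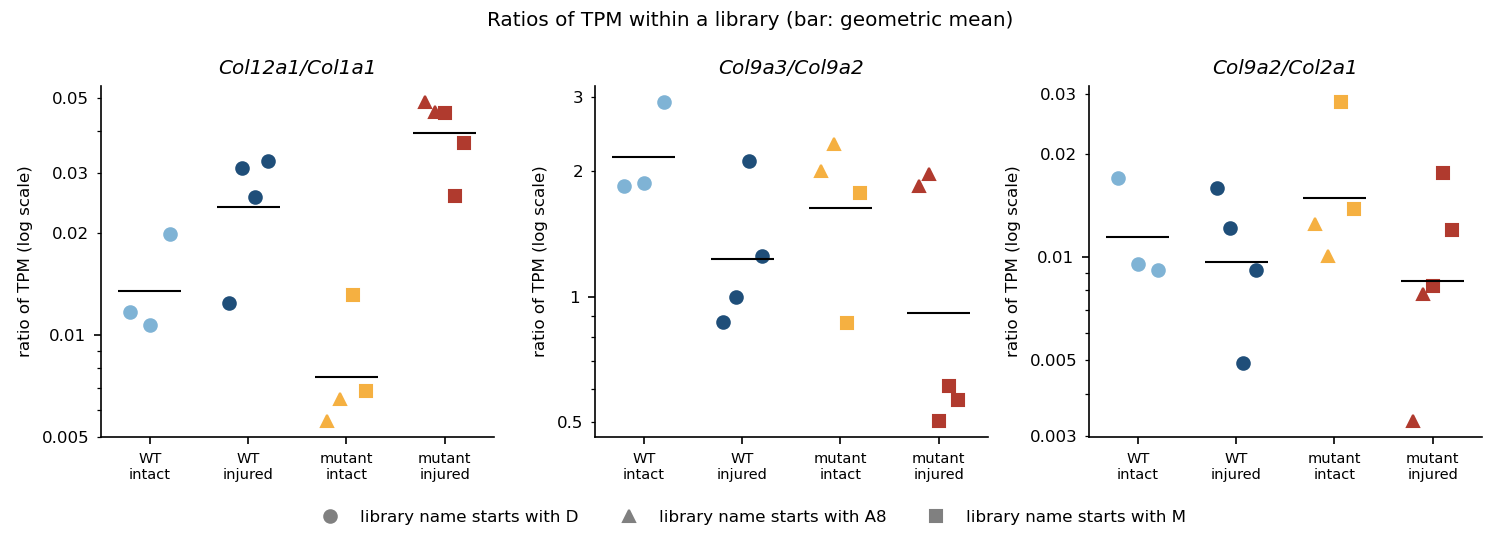
Ratio of TPM values within a library (y axis, log scale) for Col12a1 to Col1a1, Col9a3 to Col9a2 and Col9a2 to Col2a1 in the 4 groups, 1 point per mouse shaped by the start of the library name, with a bar at the geometric mean. All 5 injured mutants lie above the 4 intact mutants for Col12a1 to Col1a1, from 0.0258 to 0.0487, while in the Col9a3 to Col9a2 panel the 3 injured mutants with M names lie lowest, from 0.503 to 0.611.

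Col14a1 (ENSMUSG00000022371, chromosome 15, 55307750 to 55520803, plus strand) encodes collagen XIV, the closest relative of collagen XII, known for limiting fibril diameter in young tendon. Intact discs had 11.3, 8.69 and 8.79 TPM in the wild type and 7.73, 9.06, 16.01 and 8.08 TPM in mutants. Injured wild-type discs had 5.75, 7.23, 82.5 and 15.7 TPM, and injured mutant discs 5.88, 29.9, 2.66, 12.6 and 8.85 TPM. The 2 highest values belonged to the 2 mice that stood apart. Injured wild-type mouse 4 was also above its intact group, and the other 6 injured mice lay within or below the intact range of their genotype. The log2 change with injury was 0.66 ± 0.75 in the wild type (limma adjusted p = 0.6674) and -0.10 ± 0.66 in mutants (adjusted p = 0.9273). With both mice left out the changes were -0.11 and -0.50 (adjusted p = 0.945 and 0.3584). Endothelial markers were also highest in these 2 injured libraries of their groups, with sums of 152 and 55.1 TPM against 1.59 to 13.0 TPM in intact discs. Injured wild-type mouse 3 also had the highest sums of all libraries for markers of outer annulus, tendon and ligament fibroblasts (7451 TPM) and of loose connective tissue fibroblasts (769.7 TPM). In injured mutant 2 these sums were 3010 and 379.4 TPM, against 3520 to 4080 and 252 to 419 TPM in intact mutants. The part of any of these markers in the Col14a1 level was not tested. Collagens XII and XIV are often named together as tendon FACITs. Here 9 of 9 injured mice were above the intact range of their genotype for Col12a1, and 3 of 9 for Col14a1.

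The collagen IX chains came from 3 chromosomes and had unequal levels. Col9a3 (ENSMUSG00000027570, chromosome 2, 180597790 to 180622189, plus strand) was at 53.2, 41.7 and 54.9 TPM in intact wild-type discs and 52.2, 45.5, 81.4 and 79.7 TPM in intact mutant discs. It was at 57.8, 54.7, 10.9 and 107.0 TPM in injured wild-type and 21.4, 10.1, 15.4, 34.5 and 24.2 TPM in injured mutant discs. Every injured mutant lay below every intact mutant, whereas the injured wild-type mice fell on both sides of the intact ones. In mutants the log2 change was -1.63 ± 0.49 (n = 5 and 4, limma adjusted p = 0.02112), and 15.3% of all tested genes showed such non-overlap downwards. Without intact mutant 3 or intact mutant 4, the 2 with the highest levels, the change was -1.51 and -1.52 and no longer passed (limma adjusted p = 0.05369 and 0.0585, with 27.6% and 23.8% of all genes passing). In the wild type the log2 change was -0.16 ± 0.56 (adjusted p = 0.9068). With both mice that stood apart left out, the mutant change was -1.41 ± 0.27 and passed (limma adjusted p = 0.002464), and that of wild-type discs was 0.48 ± 0.31 (adjusted p = 0.5677). Exons of Col9a3 overlap those of Tcfl5 on the opposite strand, and whether the counting used strand is not given in the sources used here. Tcfl5 stayed between 30.1 and 54.9 TPM in all libraries, with a log2 change of 0.16 in injured mutants that did not pass.

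Col9a2 (ENSMUSG00000028626, chromosome 4, 121039385 to 121055322, plus strand) encodes the second chain, to which a glycosaminoglycan can be attached. It was at 28.8, 22.2 and 18.8 TPM in intact wild-type discs and 66.7, 54.4, 5.16 and 85.7 TPM in injured ones. In intact mutants it was at 26.1, 19.6, 94.1 and 44.9 TPM and in injured mutants at 11.7, 5.13, 30.7, 56.5 and 42.7 TPM. In the wild type 3 of 4 injured mice were above all intact ones and the one that stood apart was far below them. In mutants the groups overlapped. The log2 change was 0.65 ± 0.88 in the wild type (limma adjusted p = 0.7244) and -0.79 ± 0.77 in mutants (adjusted p = 0.4675). With both mice that stood apart left out, these were 1.52 ± 0.56 (limma adjusted p = 0.3337) and -0.32 ± 0.48 (adjusted p = 0.6567). Intact mutant 3, with the highest Col9a2 of all libraries, also had the lowest nucleus pulposus sum of the intact discs, 7024 TPM against 13390 to 15820 TPM, and the part of this was not tested.

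Col9a1 (ENSMUSG00000026147, chromosome 1, 24177610 to 24252684, plus strand) encodes the first chain and was the lowest of the 3 in every library. Its levels were 6.10, 7.13 and 4.75 TPM in intact and 10.8, 12.6, 0.773 and 12.4 TPM in injured wild-type discs. In mutants they were 2.79, 4.03, 5.25 and 5.87 TPM in intact and 6.78, 0.580, 1.75, 5.81 and 4.08 TPM in injured discs. The wild-type pattern was that of Col9a2, with 3 injured mice above the intact ones and mouse 3 below them, and in mutants the groups overlapped. The log2 change was 0.18 ± 0.66 in the wild type (limma adjusted p = 0.9108) and -0.38 ± 0.58 in mutants (adjusted p = 0.652). With both mice left out they were 0.90 ± 0.34 (limma adjusted p = 0.3505) and -0.04 ± 0.30 (adjusted p = 0.9447). The lowest value, in injured mutant 2, corresponded to about 10 implied reads.

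The chains of 1 molecule did not keep a fixed ratio of transcripts. The ratio of Col9a3 to Col9a2 was 1.84, 1.87 and 2.92 in intact and 0.867, 1.0, 2.11 and 1.25 in injured wild-type discs. In mutants it was 2.00, 2.32, 0.864 and 1.77 in intact and 1.84, 1.96, 0.503, 0.611 and 0.565 in injured discs. Among injured mutants the A8-named mice were near the intact ones and the 3 M-named mice were below all other libraries. With injury in mutants the mean log2 ratio differed by -0.84, which was within the spread of the groups (exact permutation p = 0.1905, adjusted p = 0.4762). The ratio of Col9a1 to Col9a2 lay between 0.0557 and 0.581, and its log2 difference with injury in mutants was 0.21 (exact permutation p = 0.8651, adjusted p = 0.8968). Set against Col2a1, the chain of the collagen II fibril that collagen IX covers, Col9a2 was at 0.00332 to 0.0284 of its TPM. That log2 ratio differed by -0.81 with injury in mutants (exact permutation p = 0.1825, adjusted p = 0.4762) and by -0.18 between injured mutants and injured wild-type mice (exact permutation p = 0.7143, adjusted p = 0.8929).

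Col16a1 (ENSMUSG00000040690, chromosome 4, 130047840 to 130099283, plus strand) encodes the homotrimeric collagen XVI, which binds integrins and is incorporated into thin fibrils in cartilage. It had the highest mean of the 8 in 3 of the 4 groups. Intact wild-type discs had 86.1, 106.9 and 75.0 TPM and injured ones 91.4, 86.9, 62.0 and 87.4 TPM. Intact mutant discs had 91.5, 81.3, 122.1 and 103.7 TPM and injured ones 41.2, 39.7, 41.5, 74.5 and 69.4 TPM. All injured mutants were below all intact mutants, while in the wild type 3 injured mice lay inside the intact range and mouse 3 below it. Markers of the nucleus pulposus and notochord were lower in the same injured mutants as Col16a1 and Col9a3. Of these 6 markers, 4 were called lower, against 17.7% of all tested genes, and the median log2 change of the 6 was -2.79. Their sums were 581 to 7023 TPM against 7024 to 14900 TPM in intact mutants. In injured wild-type discs the sums were also lower, 3050 to 11100 TPM against 15400 to 15800 TPM, while Col16a1 and Col9a3 changed by -0.12 and -0.16 on the log2 scale. Intact mutant 3, with the lowest intact sum, had the highest intact Col16a1 and Col9a3, 122.1 and 81.4 TPM. The part of these markers in either fall was not tested. The log2 change was -0.93 ± 0.20 in mutants (n = 5 and 4, limma adjusted p = 0.004517). Wild-type discs had a log2 change of -0.12 ± 0.23 (adjusted p = 0.8096). The mutant change was -0.84 ± 0.20 without both mice that stood apart (limma adjusted p = 0.007078). It was -1.07 with the A8-named mutants alone (limma adjusted p = 0.01921) and -0.90 with the M-named ones alone, which did not pass (adjusted p = 0.07826). Its spread among injured wild-type mice, an SD of 0.26 on the log2 scale, was below the 0.35 of the median gene, whereas Col9a1, Col9a2, Col9a3, Col12a1 and Col14a1 had SDs of 1.36 to 1.76 there.

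The rarest members were Col22a1 and Col19a1. Col22a1 (ENSMUSG00000079022, chromosome 15, 71795795 to 72034227, minus strand) was at 1.36, 0.990 and 1.77 TPM in intact and 0.591, 0.563, 0.164 and 0.182 TPM in injured wild-type discs. In mutants it was at 1.10, 0.888, 0.289 and 1.35 TPM in intact and 0.131, 0.575, 0.366, 0.388 and 0.375 TPM in injured discs. Each value rested on 5 to 42 implied reads, and the gene passed the filter on low values only through intact libraries. The injured wild-type mice were all below the intact ones, a non-overlap that 6.34% of all tested genes showed, and in mutants the groups overlapped. A gene tested only through the group in which it is high had to lie lower in the other, so its levels with injury are given as a description, with no test read from them. Col22a1 is still counted among the tested members. Collagen XXII belongs to the muscle-tendon border, and skeletal muscle markers also varied, with sums of 211 to 861 TPM in intact and 90.2 to 241 TPM in injured wild-type discs. In mutants those sums were 145 to 182 TPM in intact and 27.5 to 725 TPM in injured discs, and the part of muscle in the Col22a1 level was not tested. An exon of Gm16308 overlaps Col22a1 on the other strand.

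Col19a1 (ENSMUSG00000026141, chromosome 1, 24261890 to 24587472, minus strand) lies tail to tail with Col9a1, 9205 bases beyond its end. It was at 0.838, 0.456 and 0.620 TPM in intact and 0.883, 0.591, 0.131 and 0.203 TPM in injured wild-type discs. In mutants it was at 0.118, 0.515 and 0.315 TPM in 3 intact mice and 0.276, 0.128, 0.475 and 0.137 TPM in 4 injured mice, and listed at 0 in the other mouse of each group. The highest value rested on 19 implied reads. In a fit without the filter on low values no comparison passed for it, and genotype in intact discs came nearest (log2 change -0.42 ± 0.19, unadjusted p = 0.04883, limma adjusted p = 1.0). Col9a1 was above this neighbour in all 16 libraries.

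The order of levels is read across these genes on the ground that TPM values are scaled by gene length. It stays approximate, since the use of strand in counting is not given and exons of Col9a3 overlap those of Tcfl5. The long and short forms of Col9a1 are also counted as a single gene. In intact wild-type discs the means were 89.3 ± 16.2 TPM for Col16a1, 49.9 ± 7.18 for Col9a3, 23.3 ± 5.11 for Col9a2, 9.88 ± 1.92 for Col12a1, 9.61 ± 1.49 for Col14a1, 5.99 ± 1.20 for Col9a1, 1.38 for Col22a1 and 0.638 for Col19a1 (TPM, SD, n = 3). Of these neighbours in the order, the ranges of Col12a1 and Col14a1 overlapped and the others did not. In injured mutants the order began with Col12a1 at 58.8 ± 43.1 TPM and Col16a1 at 53.3 ± 17.2 TPM (SD, n = 5), which overlapped, and among the neighbours in that order the ranges separated between Col9a1 and Col22a1 alone.

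The make-up of the family is described next as shares, with no test. The summed TPM of the 8 genes was 119.8 to 373.1 per library. Col12a1 made up 2.31% to 6.63% of it in intact discs and 5.40% to 55.2% in injured discs, and reached 48.7% or more in 3 libraries, those of injured wild-type mouse 3 and injured mutants 1 and 2. The collagen IX chains together made up 35.9% to 55.1% in intact discs. In the same 3 injured libraries they made up 5.33%, 20.4% and 8.31%, and in the other 6 injured libraries 38.8% to 55.0%, inside the intact range. The lowest injured Col12a1 share, 5.40% in wild-type mouse 1, was inside the intact range too.

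**Figure D3:**
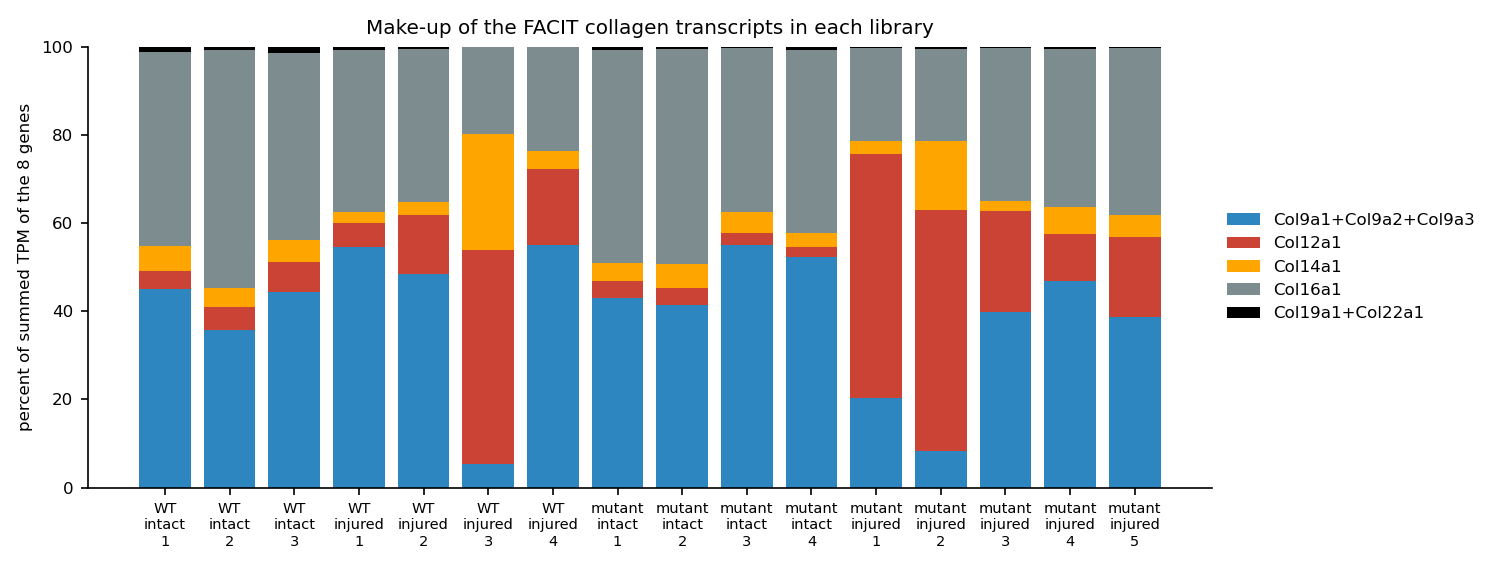
Percent of the summed TPM of the 8 FACIT collagens (y axis) contributed by the collagen IX chains together, Col12a1, Col14a1, Col16a1, and Col19a1 with Col22a1, in each of the 16 libraries (x axis). In injured wild-type mouse 3 and injured mutants 1 and 2 the Col12a1 share is 48.7% to 55.2%, against at most 6.63% in intact discs.

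Genotype made no called difference to a member. In intact discs 0 of the 7 tested members passed (limma; 0 at an unadjusted p of 0.05, background 0.0165% of all genes called), and the log2 changes from wild type to mutant ran from -0.44 for Col12a1 to 0.72 for Col9a2, with all adjusted p-values at 1. The fit shares 1 estimate of spread over the 4 groups. For Col12a1 the SD on the log2 scale was 0.26 and 0.22 in intact wild-type and mutant discs, against 1.45 and 1.07 in injured ones. The errors for intact discs therefore rest partly on injured mice, and these p-values do not measure how alike the intact genotypes were. In injured discs 0 of 7 passed as well (limma; 2 at an unadjusted p of 0.05, Col16a1 and Col9a3, background 0.918% called and 20.3% at that unadjusted p). There the mutants had lower means for Col9a3 (log2 change -1.14 ± 0.49, adjusted p = 0.2091), Col9a1 (-0.93 ± 0.58, adjusted p = 0.3791) and Col16a1 (-0.65 ± 0.20, adjusted p = 0.1086). Col12a1 differed by 0.02 ± 0.59 (adjusted p = 0.9905).

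These genotype values turned on injured wild-type mouse 3, whose collagen IX levels were like those of injured mutant 2. Without that mouse the log2 change from the 3 remaining injured wild-type mice to the injured mutants was -1.78 for Col9a3 (limma adjusted p = 0.01053), -1.65 for Col9a1 (adjusted p = 0.03199) and -0.78 for Col16a1 (adjusted p = 0.03854). That made 3 of 7 members called, all lower, with 9.31% of all tested genes called and 6.60% called lower in the same fit. With both mice that stood apart left out, Col9a3 (-1.56, limma adjusted p = 0.009677) and Col9a1 (-1.30, adjusted p = 0.02798) passed, with 8.89% of all genes called. Without injured mutant 4, Col16a1 alone passed (-0.78, limma adjusted p = 0.0493, 2.47% of all genes called), as it did with a skeletal muscle score as a covariate (-0.68, adjusted p = 0.04017, 2.17% called). The remaining injured wild-type mice included 2 with low macrophage sums, 217 and 368 TPM, and their part in these values was not tested.

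Whether injury acted differently in mutants and wild type was tested directly as an interaction, which passed for 0 of 7 members (limma; 1 at an unadjusted p of 0.05, Col16a1, against 0.00% of all genes called and 8.18% at that unadjusted p). It was -0.81 ± 0.31 for Col16a1 (adjusted p = 0.5374), -1.47 ± 0.74 for Col9a3 (adjusted p = 0.6284) and -1.45 ± 1.17 for Col9a2 (adjusted p = 0.7736) on the log2 scale. So the calls in mutants and their lack in the wild type do not show that Col9a3, Col12a1 or Col16a1 responded differently in the 2 genotypes. In the wild type 0 of 7 members passed for injury (limma; 2 at an unadjusted p of 0.05, Col12a1 and Col22a1), where 0.116% of all genes were called and 17.2% had such an unadjusted p. Col22a1 was tested only through intact libraries, so its p is not read as a result.

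**Figure D4:**
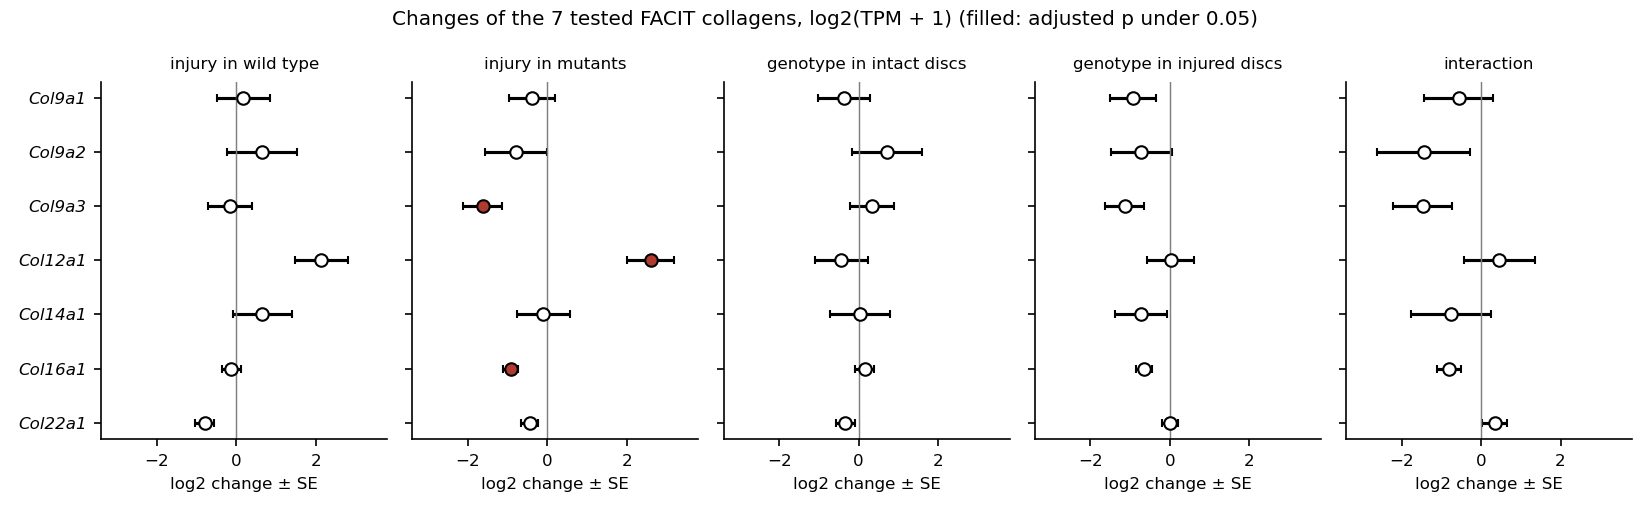
Log2 change ± moderated SE (x axis, difference of mean log2(TPM + 1)) of the 7 tested FACIT collagens (y axis) in the 5 comparisons, with filled points for an adjusted p under 0.05. The 3 filled points, Col9a3 at -1.63, Col12a1 at 2.60 and Col16a1 at -0.93, are all in the comparison of injured with intact mutants.

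The collagen IX chains correlated with one another from mouse to mouse within groups, and the other members did so to unequal degrees. After the mean of each group was subtracted, log2(TPM + 1) of Col9a3 correlated with that of Col9a1 and of Col9a2 at r = 0.89 each over 16 libraries, and Col9a1 with Col9a2 at 0.78. These are descriptions of points that share library and tissue make-up. Without the 2 mice that stood apart (14 libraries) the values were 0.53, 0.63 and 0.10. Col16a1 correlated with Col9a2 at 0.80, and at 0.77 without the 2 mice. Col14a1 changed sign against Col9a3, from -0.54 over 16 libraries to 0.83 over 14. It also did so against Col9a2, from -0.56 to 0.56, and against Col9a1, from -0.65 to 0.58. Col12a1 correlated with Col14a1 at 0.69 and at 0.24 without the 2 mice, and with Col9a2 at -0.73 and -0.37. Against the other collagen IX chains Col12a1 changed sign, from -0.53 to 0.33 with Col9a1 and from -0.54 to 0.19 with Col9a3. Col22a1 lay between -0.06 and 0.03 against the collagen IX chains over 16 libraries, and between -0.32 and -0.23 over 14.

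**Figure D5:**
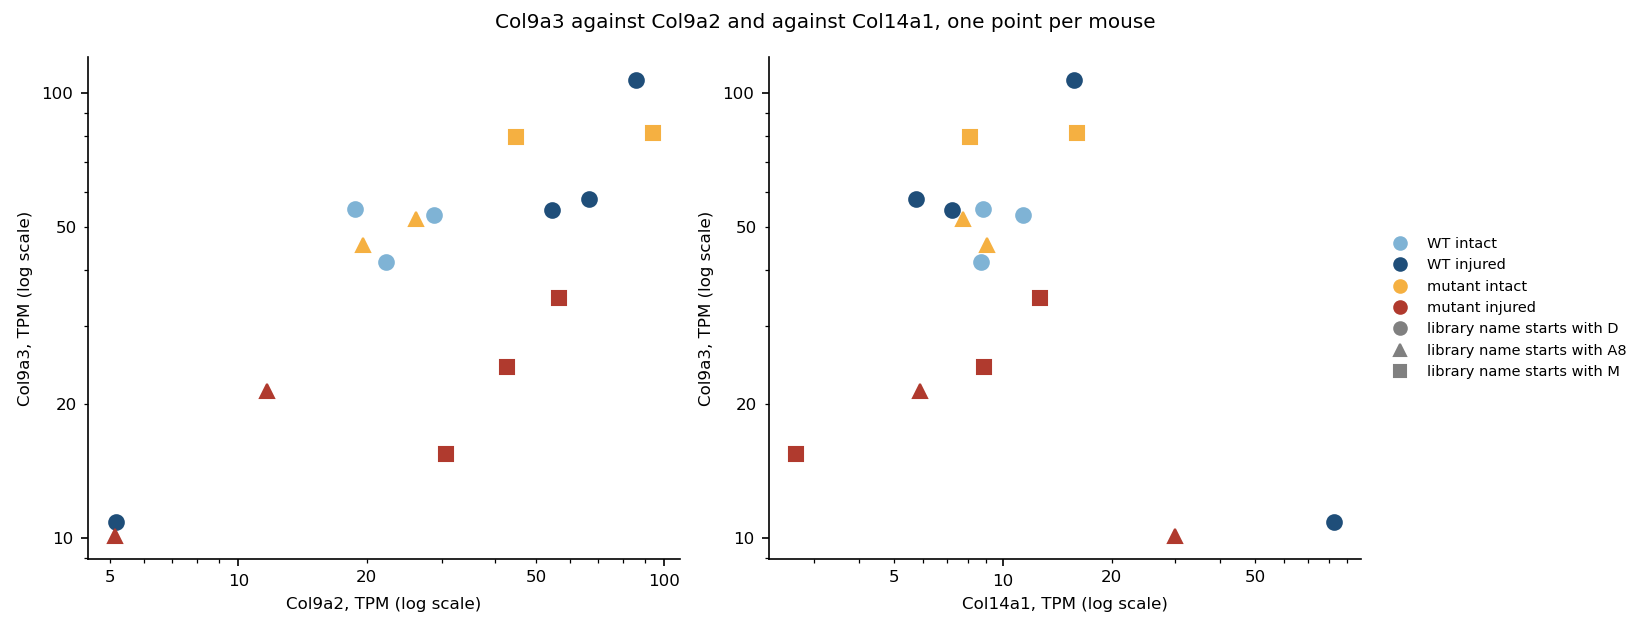
TPM of Col9a3 (y axes, log scale) against Col9a2 (left) and Col14a1 (right, x axes in TPM, log scale), 1 point per mouse, coloured by group and shaped by the start of the library name. Injured wild-type mouse 3 and injured mutant 2, at 10.9 and 10.1 TPM of Col9a3, lie at the low end of both genes on the left and, on the right, far from the other mice at 82.5 and 29.9 TPM of Col14a1.

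The genes whose within-group pattern was most like that of a member were sought among 11930 genes. For Col12a1 they were Vmp1 (r = 0.96), Fzd1 (0.94) and Col3a1 (0.94), a fibrillar collagen of healing tissue. For Col14a1 they were Sh2b3 (0.95), Cxcl12 (0.95) and Egfl7 (0.94), the last of them a secreted protein of endothelium. For Col9a2 they were Pde4dip (0.95), B4galnt3 (0.94) and Tert (0.93). All 9 values were over 16 libraries, and over the 14 libraries without the 2 mice they were 0.80 to 0.92. The 9 genes were picked for the highest values over the same libraries. High values over 14 of these follow in part from that choice and are no separate check.

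The fibrils that FACIT collagens coat and the proteins they meet were read from the same fit. Of 11 fibrillar collagens, 2 rose and 0 fell with injury in mutants: Col3a1 by 2.15 ± 0.68 (limma adjusted p = 0.02697) and Col5a2, which helps to start fibrils, by 1.18 ± 0.37 (adjusted p = 0.02712). Their list had a median log2 change of 0.27. Of 14 tested fibril-surface partners (16 listed), 5 rose and 6 fell, with a median of -0.32. The 5 include Matn4, with means of 0.454 and 0.236 TPM in intact wild-type and mutant discs and 1.95 and 1.70 TPM in injured ones. Matn4 needed injured libraries to pass the filter on low values, so no test is read from its rise. Among all tested genes 13.1% rose and 17.7% fell in this comparison, which is the background for each of these lists. The largest rises were those of Tnc, the tenascin-C of healing tissue and a ligand of collagen XII (4.61 ± 0.76, limma adjusted p = 0.001068), and Lum, a small leucine-rich proteoglycan (4.08 ± 1.03, adjusted p = 0.009108). The largest falls were those of Chad, a cell-binding cartilage protein (-2.71 ± 0.55, limma adjusted p = 0.003053), and Comp, a pentameric protein that binds collagens II and IX (-2.54 ± 0.47, adjusted p = 0.001854). Of 7 collagen-binding receptors, 0 rose and 5 fell, with a median of -0.79, led by Itga11 (-1.74 ± 0.33, limma adjusted p = 0.002098) and Itga1 (-1.68 ± 0.55, adjusted p = 0.03233), integrin chains that bind collagens I and IV respectively.

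Of the 3 SOX factors that drive cartilage collagens, Sox6 fell (-0.63 ± 0.21, limma adjusted p = 0.03447). The others did not pass, with Sox9 at 0.58 ± 0.24 (limma adjusted p = 0.07571) and Sox5 at -0.08 ± 0.11 (adjusted p = 0.607). Of 6 tendon and ligament genes, 1 rose and 4 fell, with a median of -0.92. Egr2, a transcription factor of tendon and of immediate responses, rose by 2.19 ± 0.40 (limma adjusted p = 0.001791), while Myoc (-3.14 ± 0.64, adjusted p = 0.00317) and Tnmd, a membrane protein of mature tendon cells (-2.03 ± 0.50, adjusted p = 0.007797), fell. Egr2 had means of 0.784 and 1.20 TPM in intact wild-type and mutant discs, so the limit given for Tnc holds for it too. In the wild type 0 of the 41 tested genes of these 5 lists passed for injury (limma; 15 at an unadjusted p of 0.05), against 0.116% of all genes passing and 17.2% at that unadjusted p. Between injured mutants and injured wild-type mice 1 of 41 did, against 0.918% of all genes, named here after its value was seen: Matn2, a matrilin of fibrillar matrix, at -0.57 ± 0.11 (limma adjusted p = 0.03215). Col20a1, a FACIT gene outside the 8, rose in mutants from 5.60 to 8.65 TPM in intact to 11.5 to 29.9 TPM in injured discs, by 1.11 ± 0.26 on the log2 scale (limma adjusted p = 0.005846). Its exons overlap those of another annotated gene, BX649560.1, on the same strand.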

How the data were processed

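Bulk RNA-seq of 16 mouse disc samples was used. The authors deposited 1 table of TPM values per gene, which sum to the same total in each library. Library preparation removed ribosomal RNA, per the labels' protocols, although the molecule field of the labels reads polyA RNA. The submitters' processing notes name bcl2fastq 2.20 and GRCm38. The aligner, the counter and its use of strand are not given in the sources used here. Groups and mouse numbers came from the titles, and nothing in the labels ties same-numbered mice together. Deviations from the group means correlated at -0.22 to 0.15 between 21 pairs of same-numbered libraries and at -0.31 to 0.30 between 74 other pairs, so the numbers were not used as pairs.

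The test was limma 3.58.1 (R 4.3.3, eBayes with a trend) on log2(TPM + 1) over the 24188 genes that reached 1 TPM in 3 or more libraries, with the 16 libraries in 1 fit of 4 group means. Changes are on that scale, which understates the change of low genes. Their errors are moderated standard errors, and Benjamini-Hochberg adjustment ran over all tested genes of a comparison with a threshold of 0.05. The fit was tested on simulated data in which each gene had the same spread in all groups. That setting does not cover genes whose spread differed between intact and injured discs, as it did for most members. Ratios used exact two-sided permutation in Python 3.11.15. Positions came from GENCODE release M21, which held 49056 of the 49315 identifiers. Reads were implied by dividing each TPM value by the worth of 1 read for the exon length of the gene, which put 94.2% to 95.0% of a library's low values within 0.05 of a whole number. These are approximations, and no counting interval was made from them.

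The members, the partner lists and the markers were chosen with earlier results of these data known. All 8 members are named, as are the 2 largest rises and falls of each partner list in mutants that passed, and the 3 genes of at least 5 TPM on average that were most like Col9a2, Col12a1 and Col14a1. Alternatives were a pseudocount of 0.1, no filter or a mean of 5 TPM, other scalings, no trend, only the groups compared, a replicate block, a muscle score, each naming of the mutant libraries, and each mouse left out. Leaving out both mice that stood apart was added after the data were seen.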

Additional observations from a re-analysis of the deposited data

Results flagged for a closer look

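Of 24 groups of 4 or 5 mice examined 4 values lay far from the rest of their group by Dixon's criterion, which chance meets in about 1 group of 20. In injured wild-type mouse 3, Col9a1 was low at 0.773 TPM, Col14a1 was high at 82.5 TPM and Col16a1 was low at 62.0 TPM. In intact mutant 3, Col14a1 was high at 16.01 TPM.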

How the results depend on the processing

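The changes of Col12a1, Col9a3 and Col16a1 with injury in mutants kept their direction under all alternatives run. Leaving out 1 mouse at a time gave 2 to 3 members called for injury in mutants, 0 to 1 for injury in the wild type, 0 to 3 for genotype in injured discs, and 0 for genotype in intact discs and for the difference of the injury effects. With M-named mutants only, 0 members were called for injury in mutants. For genotype in injured discs, 1 was called with the muscle score (Col16a1, -0.68, limma adjusted p = 0.04017) and 2 with both mice that stood apart left out. With A8-named mutants only, Col9a3 (-1.66, limma adjusted p = 0.1822) did not pass. Over all genes, calls ran from 725 to 7985 for injury in mutants (7438 as reported), 2 to 452 in the wild type (28), 2 to 2253 for genotype in injured discs (222), 1 to 8 in intact discs (4) and 0 to 45 for the difference of the injury effects (0).

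The following log2 values changed sign, none of them past the threshold, and the cause was not tested. With a replicate block, Col9a1 was at -0.03 for wild-type injury. The block gave 2.72 for Col12a1, -1.71 for Col9a3 and -1.04 for Col16a1 in mutants, and changed no call of a member. With the muscle score, wild-type injury gave 0.40 for Col9a3 and 0.20 for Col16a1, and genotype in intact discs 0.17 for Col9a1 and -0.28 for Col14a1. Quantile normalization gave 0.02 for Col14a1 with mutant injury and 0.11 for Col22a1 between injured genotypes, where Col22a1 was also at 0.04 with a pseudocount of 0.1 and 0.03 with median-of-ratios scaling. With A8-named mutants only, Col14a1 was at 0.64 for mutant injury, and genotype in intact discs gave -0.02 for Col9a2 and for Col9a3, -0.17 for Col14a1 and -0.03 for Col16a1. With M-named mutants only, genotype in injured discs gave 0.19 for Col9a2, -0.75 for Col12a1 and 0.02 for Col22a1, and the difference of injury effects for Col12a1 was -0.34. Without both mice that stood apart, wild-type injury gave 0.48 for Col9a3, -0.11 for Col14a1 and 0.00 for Col16a1.

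Ratios with A8-named mutants only differed between injured genotypes by 0.61 (Col9a1 to Col9a2) and 0.63 (Col9a3 to Col9a2). With M-named mutants only they were -0.05 for Col9a1 to Col9a2 with mutant injury and, between injured genotypes, 0.31 for Col9a2 to Col2a1 and 0.13 for Col14a1 to Col1a1. With 1 mouse left out at a time, the ranges were -0.33 to 0.50 for Col9a1 to Col9a2 and 2.24 to 2.65 for Col12a1 to Col1a1 with mutant injury, and, between injured genotypes, -0.51 to 0.16 for Col9a2 to Col2a1 and -0.34 to 0.28 for Col14a1 to Col1a1.

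Leaving out 1 mouse at a time also turned the sign of some member changes. For wild-type injury the ranges were -0.08 to 0.90 for Col9a1, -0.58 to 0.48 for Col9a3, -0.11 to 1.10 for Col14a1 and -0.24 to 0.01 for Col16a1. Col14a1 ran from -0.50 to 0.27 for mutant injury, -0.18 to 0.15 between intact and -1.16 to 0.05 between injured genotypes, and -1.19 to 0.01 for the difference of injury effects. Between injured genotypes Col12a1 ran from -0.55 to 0.59 and Col22a1 from -0.08 to 0.07, and the difference of injury effects for Col12a1 from -0.11 to 1.03. Depth limits Col19a1 and Col22a1, and low values of Col9a1.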
